A study of Mus musculus with 20 samples.

Results

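The promoters described here belong to 10 genes whose domains carry a genomic imprint laid down in the oocyte: Snrpn, Peg3, Mest, Peg10, Plagl1, Grb10, Kcnq1ot1, Igf2r, Nnat and Zrsr1. They were taken by gene symbol from the 22480 promoters of the deposited table, and all 10 were found. All 10 were among the 126 promoters that the table marks as imprinted.

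Sperm DNA of 20 males was analyzed by MBD-sequencing, in which methylated DNA is captured and then sequenced. Bis(2-ethylhexyl)phthalate (DEHP), a plasticizer, was diluted in corn oil and given by mouth to wild type mothers at 300 mg/kg/day from gestation day 9 to 19, whereas control mothers received corn oil alone. The males were killed at 8 weeks of age, and each of the 4 groups (control and DEHP in the C57BL/6J strain, control and DEHP in the FVB/N strain) held 5 males. All DEHP samples, of both strains, were submitted for sequencing in 1 batch and all control samples in another, so DEHP and submission cannot be told apart. DEHP libraries were, per the methods of the study, sequenced somewhat deeper on average and with slightly longer reads. The litter of each male is not given in the sources used here. Sperm samples in which somatic cells were seen under the microscope had been left out by the authors.

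In mammals, a small set of genes is expressed from the maternal or the paternal allele only. The mark that tells the alleles apart is DNA methylation, which at most imprinted domains is placed on a CpG-rich region in the growing oocyte, is absent from the same region in sperm, and is kept after fertilization with the help of the zinc finger protein ZFP57. A few domains, among them H19, Meg3 and Rasgrf1, are instead methylated in sperm. At the domains described here, the textbook state of the imprint in sperm is thus free of methylation, although the promoter of the gene and the imprint are not always the same sequence.

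Each promoter was measured over a probe of 2200 bp, from 2000 bp before to 200 bp after the start of the gene, and the position of the probe decided how much of the imprinted island it held. For 3 of the 10 genes (Snrpn, Mest and Plagl1), the RefSeq start with the most CG sites around it lay outside the probe. The sequences below run from 250 bases before to 30 bases after a RefSeq start on GRCm38.p6, 5′ to 3′ along the gene, with CG in capitals, and are shown because the CG content around the starts differs so much between them. The first of each pair is the start on which the probe was built, the second the start at the CpG-rich region.
Snrpn, chr7:60450148-60450427, minus strand: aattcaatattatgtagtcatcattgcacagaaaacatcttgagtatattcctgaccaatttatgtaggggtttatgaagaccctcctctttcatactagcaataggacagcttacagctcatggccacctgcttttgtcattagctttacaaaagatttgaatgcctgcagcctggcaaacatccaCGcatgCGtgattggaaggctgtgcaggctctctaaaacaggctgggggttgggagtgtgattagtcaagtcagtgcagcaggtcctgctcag
Snrpn, chr7:60005170-60005449, minus strand: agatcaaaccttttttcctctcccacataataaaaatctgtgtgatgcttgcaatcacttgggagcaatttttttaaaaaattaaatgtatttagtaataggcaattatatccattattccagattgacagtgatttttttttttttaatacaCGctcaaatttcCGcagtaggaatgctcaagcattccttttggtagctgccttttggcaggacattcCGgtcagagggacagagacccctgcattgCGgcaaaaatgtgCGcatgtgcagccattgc
Mest, chr6:30733256-30733535, plus strand: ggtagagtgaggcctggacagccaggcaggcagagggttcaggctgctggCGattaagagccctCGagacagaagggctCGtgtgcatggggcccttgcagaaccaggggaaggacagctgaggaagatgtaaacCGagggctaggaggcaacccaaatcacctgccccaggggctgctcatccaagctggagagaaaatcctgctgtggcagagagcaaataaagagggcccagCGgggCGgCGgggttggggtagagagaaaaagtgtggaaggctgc
Mest, chr6:30737803-30738082, plus strand: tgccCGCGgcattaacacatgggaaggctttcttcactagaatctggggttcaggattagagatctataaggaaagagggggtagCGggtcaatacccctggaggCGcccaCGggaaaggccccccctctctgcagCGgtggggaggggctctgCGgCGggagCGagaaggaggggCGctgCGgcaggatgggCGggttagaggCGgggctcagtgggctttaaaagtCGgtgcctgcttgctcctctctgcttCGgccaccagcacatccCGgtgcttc
Nnat, chr2:157559828-157560107, plus strand: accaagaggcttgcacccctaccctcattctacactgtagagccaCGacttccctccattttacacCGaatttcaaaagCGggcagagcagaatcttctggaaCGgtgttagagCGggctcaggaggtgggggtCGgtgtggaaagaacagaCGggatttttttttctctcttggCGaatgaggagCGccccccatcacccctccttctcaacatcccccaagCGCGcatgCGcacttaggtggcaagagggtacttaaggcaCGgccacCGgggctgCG
Grb10, chr11:12037391-12037670, minus strand: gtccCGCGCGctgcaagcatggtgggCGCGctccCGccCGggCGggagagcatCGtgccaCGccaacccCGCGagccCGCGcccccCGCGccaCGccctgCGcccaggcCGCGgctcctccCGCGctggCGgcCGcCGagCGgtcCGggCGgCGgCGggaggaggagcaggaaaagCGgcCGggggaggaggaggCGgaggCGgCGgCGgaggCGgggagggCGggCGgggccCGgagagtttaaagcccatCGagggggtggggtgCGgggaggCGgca
The upper Snrpn sequence holds 2 CG sites and the lower one 5. For Mest the numbers were 7 and 16, and the lower Mest sequence lies within a CpG island over its whole length of 280 bases. The Nnat and Grb10 sequences, both inside their probes, hold 15 and 43 CG sites and also lie in an island over all 280 bases. A CpG island was defined as windows of 200 bases with more than 50% GC and an observed over expected CG ratio above 0.6. RefSeq promoter sequences were found for 9 of the 10 genes, and none was found for Peg10.

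Snrpn encodes a protein of the small nuclear ribonucleoprotein particles, and its imprinted island is the imprinting centre of the Prader-Willi/Angelman region. Its probe (mm10, chromosome 7, 60449978 to 60452177, minus strand) sat on a far upstream start, 444978 bp from the start at the island. It held 15 CG sites, the fewest of the 10 probes, and 0 island bases, and 63.05% of it was repeat-masked. The island start, at 60005199, fell within the probe of Snurf, the gene that shares the Snrpn transcript. Mest, an enzyme of the alpha/beta hydrolase fold, had its probe at chromosome 6, 30731506 to 30733705, with 41 CG sites and 212 island bases. The densest Mest start lay 4547 bp further downstream, outside the probe, with 69 CG sites and 961 island bases in the 1000 bp around it, against 26 CG sites and 0 island bases around the start of the probe. Plagl1, a zinc finger transcription factor, had its probe at chromosome 10, 13058504 to 13060703, with 28 CG sites and 0 island bases, whereas the RefSeq start 30328 bp downstream had 78 CG sites in the 1000 bp around it.

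For a further group, the probe began at the right start but ended before most of the island. Kcnq1ot1, a long non-coding RNA read antisense from an intron of Kcnq1, had 27 CG sites in its probe (chromosome 7, 143296348 to 143298547, minus strand) and 99 in the 2000 bp after its start. Zrsr1, a retrotransposed splicing factor gene in an intron of Commd1, had 30 CG sites in its probe (chromosome 11, 22970005 to 22972204) and 113 in the 2000 bp after its start. Peg10 (chromosome 6, 4745306 to 4747505), derived from a retrotransposon, had 76 and 130, and Peg3 (chromosome 7, 6730220 to 6732419, minus strand), a zinc finger protein, had 61 and 91. The start sides of the Peg10 and Peg3 probes were also covered by the probes of the genes on the opposite strand. The Peg10 and Sgce probes shared 501 bp with 36 CG sites, and the Peg3 and Usp29 probes shared 721 bp with 32 CG sites.

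The remaining probes were those of Nnat, Igf2r and Grb10. Nnat, a small membrane protein of neurons, lies in an intron of Blcap, and its probe (chromosome 2, 157558110 to 157560309) held 69 CG sites, 50 of them within 874 island bases, and 511 bp of Blcap exons. The 2000 bp after the Nnat start held 96 CG sites, most of them outside the probe. Igf2r, the receptor that clears insulin-like growth factor 2, and Grb10, an adaptor of the insulin receptor, carry their imprint inside the gene. For Igf2r the imprint lies at the start of the antisense RNA Airn, at 12741311, and the Igf2r probe (chromosome 17, 12769507 to 12771706, minus strand) lay away from it, with 78 CG sites. The Airn probe held 20 CG sites, against 104 in the 2000 bp after the Airn start. The Grb10 probe (chromosome 11, 12037221 to 12039420, minus strand) held 131 CG sites, the most of the 10, whereas the internal start 9449 bp downstream was followed by 108 CG sites in 2000 bp that no probe reached at that start.

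**Figure D1:**
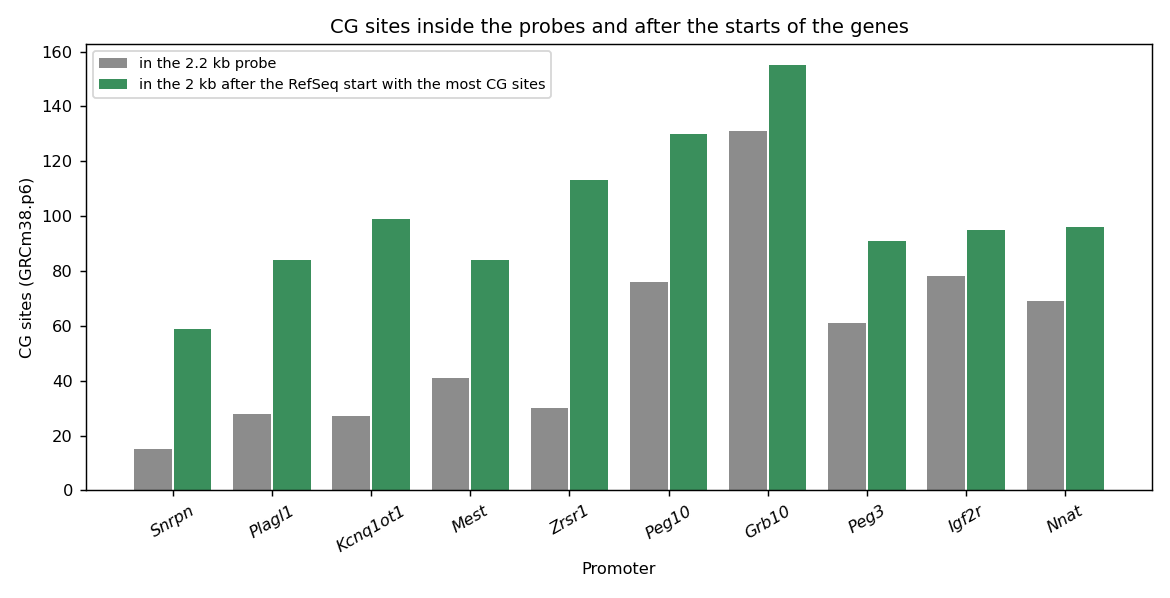
CG sites of GRCm38.p6 (vertical axis) in the 2200 bp probe of each gene (grey) and in the 2000 bp after the RefSeq start of the gene that is followed by the most CG sites (green). In all 10 genes the green bar is the taller one, with 113 against 30 CG sites at Zrsr1 and 99 against 27 at Kcnq1ot1.

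The probes as a group resembled other promoter probes. They held a median of 51 CG sites, against 45 over all promoters, and 8 of 10 held island bases, against 64.5% of all probes. The hexamer TGCCGC, which ZFP57 binds when methylated, was found on either strand in 5 of 10 probes (36.2% of all probes), and Nnat was the only one of the 10 with 3 or more (3.43% of all probes). In the 1000 bp around the densest Mest start there were 10 such hexamers, and around the Snrpn island start there were 5. The YY1 core AAGATGG was found on either strand in 4 of 10 probes (40.0% of all). A match describes the letters only. The table lists no variant between the strains in 8 of the 10 probes, against 53.9% of all probes, and 1 variant each in those of Grb10 and Zrsr1. In all 10 probes the number of CG sites in GRCm38.p6 was the one deposited.

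The levels below are the authors' mean of normalized read-pairs over the probe, with the authors' SD (n = 5 libraries). Single libraries were not analysed here and the depth of any one of them is unknown, so no test was run and no difference below has a p-value. The authors' means over all promoters summed to between 141092 and 226268 normalized reads in the 4 groups. MBD capture gives more reads where there are more methylated CG sites. Levels were therefore divided by the number of CG sites of the probe, and each promoter was ranked by its level per CG site among all other promoters whose number of CG sites was within 10% of its own. A rank of 0% is the lowest of these peers and 100% the highest, and the rank does not depend on how a group was scaled.

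In all 4 groups, 9 of the 10 promoters had means between 0.5 and 8.7 normalized reads. Nnat stood apart, with means between 9.5 and 26.5. A typical promoter also had few reads, since the median mean over all promoters ranged from 3.0 to 5.3 across the groups. Peg3 and Igf2r were above that value in every group. For the 10 promoters together the median mean ranged from 2.8 to 4.2. It was lower than that of all promoters in each group, but by little in FVB/N controls (2.8 against 3.0). The median of the 4 ranks was below 50% for 7 of the 10 promoters. Over the 10 promoters this median rank was 24.1%, compared with 49.4% over the 116 other imprinted promoters of the table, of which 50.9% were below 50%. Of the 8 genes with the imprint at a start of their own, 6 were below 50%. These 6 include Snrpn, Mest and Plagl1, whose probes did not reach the RefSeq start with the most CG sites. Their ranks thus do not measure the level at that start. For 5 promoters (Snrpn, Plagl1, Kcnq1ot1, Mest and Zrsr1), the range from the mean minus to the mean plus 1 SD stayed below a rank of 50% in every group. Only Nnat stayed above 50% in this way.

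**Figure D2:**
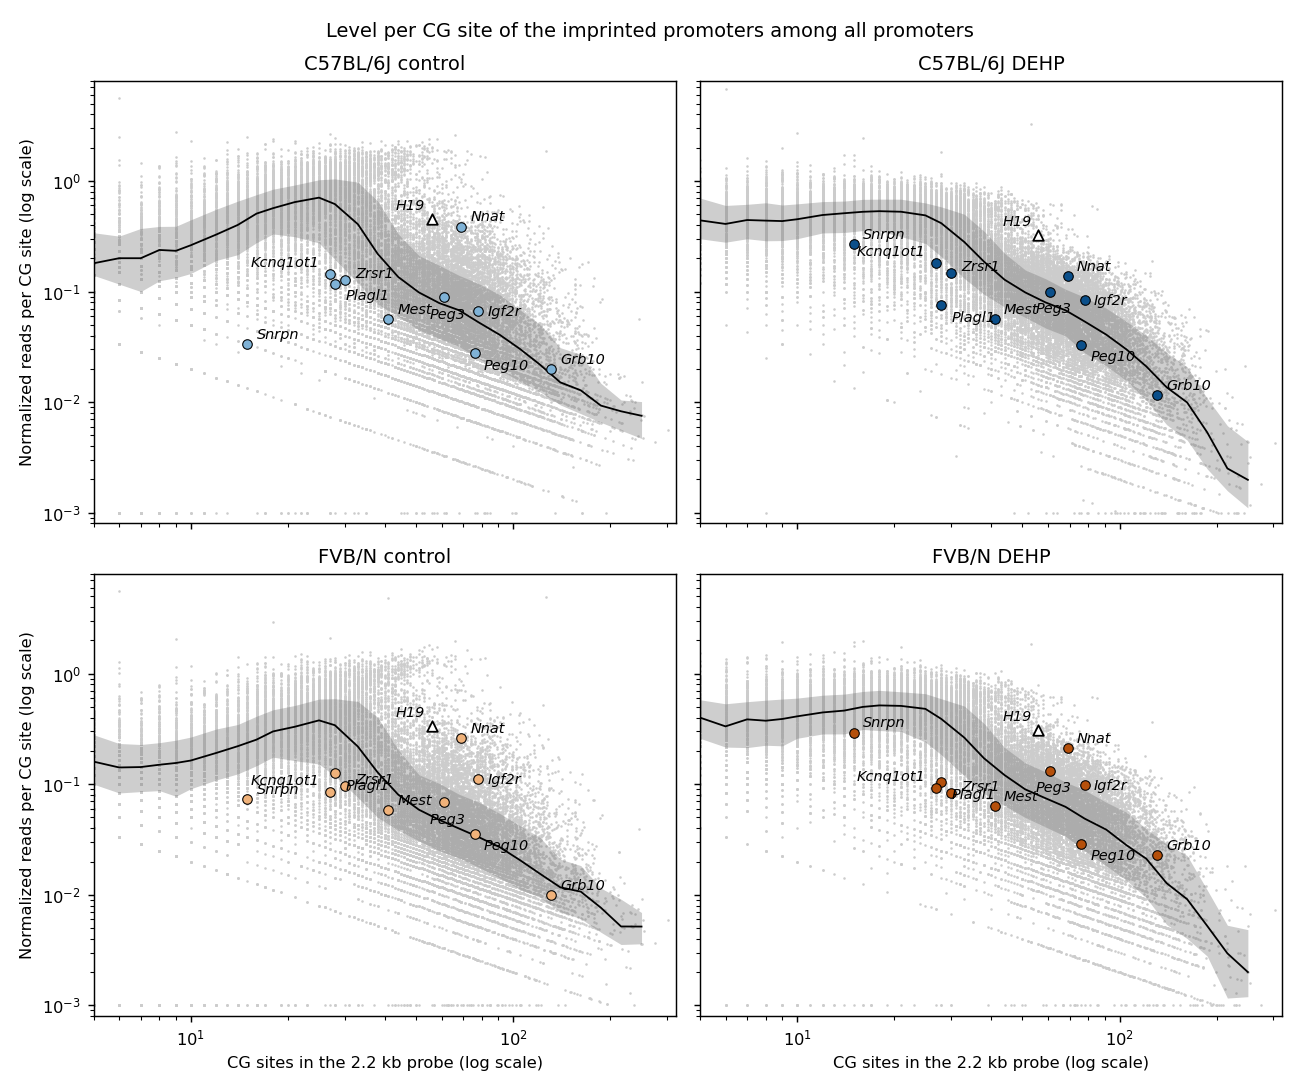
Level per CG site (normalized reads, log scale) against CG sites of the probe (log scale) for all 22480 promoters (grey dots), 1 panel per group, with the 10 imprinted promoters as filled circles and H19 as an open triangle. The black line and grey band are the median and the quartiles of promoters with as many CG sites, and levels under 0.001 are drawn at 0.001. Snrpn, Plagl1, Kcnq1ot1, Zrsr1 and Mest lie under the band in C57BL/6J controls, and Nnat lies above it beside H19.

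In C57BL/6J, the Snrpn probe had 0.5 ± 0.7 normalized reads in controls and 4.0 ± 1.0 in DEHP, and in FVB/N it had 1.1 ± 1.2 and 4.4 ± 1.2. Values of the 4 groups are given in this order throughout. Its ranks of the level per CG site among 859 peers were 1.57%, 18.2%, 10.4% and 24.4%. Both control groups were thus at or near the bottom of promoters with as few CG sites, and both DEHP groups were higher but below a rank of 25%. The Snurf probe, over the edge of the Snrpn island, had 1.2 ± 0.8, 1.2 ± 1.0, 1.9 ± 1.7 and 0.7 ± 1.0 normalized reads with 22 CG sites. Its median rank of 2.96% was the lowest of all promoters with at least 20 CG sites in the lists of neighbouring and other imprinted genes. Of these CG sites, 16 lay in 374 island bases, whereas 59 CG sites followed the island start within 2000 bp, mostly beyond the probe. Over the whole Snurf probe, the level was low in every group, and the mean in DEHP was not above that in controls. Reads could not be placed within the probe, so no level is given for its island part.

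The probes of Plagl1, Kcnq1ot1 and Zrsr1 had similar numbers of CG sites, and their peers had the highest levels, with a median of the authors' means between 16.6 and 17.2 normalized reads in C57BL/6J controls. Plagl1 had 3.3 ± 2.3, 2.1 ± 1.3, 3.5 ± 3.9 and 2.9 ± 1.7 normalized reads, with ranks between 6.96% and 26.2%. Kcnq1ot1 had 3.9 ± 2.9, 4.9 ± 2.7, 2.3 ± 2.0 and 2.5 ± 1.6, with ranks between 11.0% and 19.9%. Zrsr1 had 3.8 ± 2.1, 4.4 ± 1.3, 2.9 ± 1.8 and 2.5 ± 1.5, with ranks between 12.2% and 24.2%. The means of these 3 promoters were between 0.183 and 0.412 times the median of their peers in every group. Mest had 2.3 ± 2.1, 2.3 ± 0.7, 2.4 ± 0.8 and 2.6 ± 1.4 normalized reads, the steadiest means of the 10 promoters, with ranks of at most 34.1%. The ranges of 1 SD around the ranks of these 4 promoters and Snrpn overlapped in every group, except that Snrpn was below Zrsr1 in C57BL/6J controls.

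Peg10 and Grb10 came next. Peg10 had 2.1 ± 2.4, 2.5 ± 1.7, 2.7 ± 0.6 and 2.2 ± 1.4 normalized reads over 76 CG sites, with ranks of 27.4%, 27.8%, 51.9% and 27.8%. Grb10 had 2.6 ± 1.3, 1.5 ± 1.3, 1.3 ± 1.3 and 3.0 ± 1.6 normalized reads over 131 CG sites, with ranks of 54.9%, 35.7%, 34.2% and 61.2%. CG-rich promoters as a whole had few reads (the peers of Grb10 had a median of 2.2 normalized reads in C57BL/6J controls), so a middle rank here goes with a low level per CG site, between 0.00992 and 0.0229 reads for Grb10. At 5 of the 40 values of the 10 promoters the SD was as large as the mean or larger, among them Grb10 in FVB/N controls and Peg10 in C57BL/6J controls.

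Peg3 had 5.4 ± 1.9, 6.1 ± 4.0, 4.2 ± 2.0 and 8.1 ± 3.0 normalized reads, and its ranks were between 54.3% and 78.6%. Igf2r had 5.2 ± 3.7, 6.6 ± 3.0, 8.7 ± 5.2 and 7.7 ± 1.3 normalized reads, and its ranks were between 57.3% and 86.2%. The ranges of 1 SD around these ranks overlapped in every group, so Peg3 and Igf2r could not be ordered. Their levels per CG site were between 0.0689 and 0.133 reads for Peg3 and between 0.0667 and 0.112 for Igf2r. These overlapped the levels of low-ranked promoters, namely Kcnq1ot1 (0.0852 to 0.181), Zrsr1 (0.0833 to 0.147) and Plagl1 (0.075 to 0.125). The higher ranks thus hold only beside peers with as many CG sites. The Airn probe, which ends just after the start inside the Igf2r imprint, had ranks between 10.1% and 18.4%, with means between 2.3 and 4.6 normalized reads.

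Nnat had 26.5 ± 8.6, 9.5 ± 3.8, 18.1 ± 7.0 and 14.6 ± 2.4 normalized reads. Its ranks were 96.3%, 88.8%, 96.7% and 97.1% among 2581 peers, and its means were between 2.11 and 6.96 times the median of the peers. The level at the Nnat probe thus does not follow the sperm state that the group of genes is known for. The H19 probe, in a domain methylated in sperm, had means between 17.5 and 25.3 normalized reads and ranks between 93.3% and 97.2%, in the range of Nnat. Meg3 had ranks of 95.5%, 86.1%, 80.0% and 58.9%, whereas Rasgrf1 had ranks between 42.8% and 69.8%. How much of the sperm imprint the H19, Meg3 and Rasgrf1 probes held was not examined. The table does not place reads within a probe. Of the 69 CG sites of the Nnat probe, 36 lay in the last 550 bp, at the Nnat start, and 10 in the first 550 bp, so the level could not be assigned to the imprinted island or to the sequence upstream of it.

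**Figure D3:**
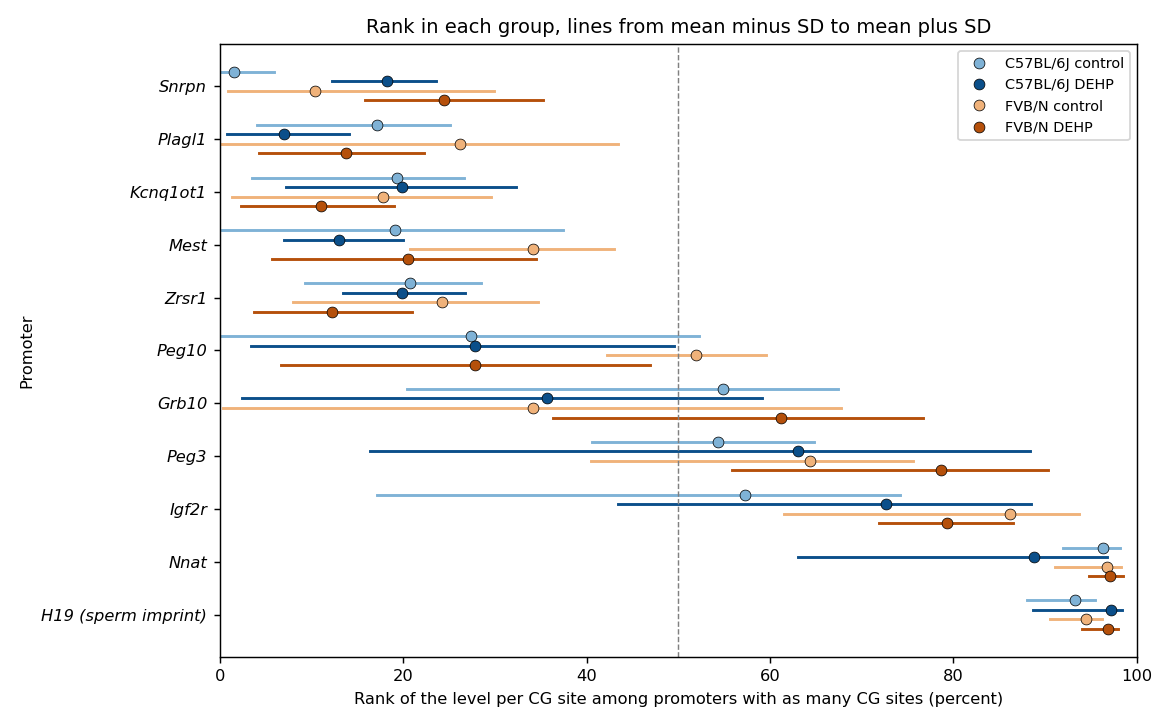
Rank of the level per CG site among promoters with as many CG sites (horizontal axis, percent) for the 10 imprinted promoters and H19, in each group (colours). Lines run from the rank at the mean minus SD to the rank at the mean plus SD, and the dashed line marks 50%. Snrpn, Plagl1, Kcnq1ot1, Mest and Zrsr1 stay left of the dashed line, and Nnat lies with H19 at ranks between 88.8% and 97.2%.

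The change with prenatal DEHP was taken in each strain as the log2 ratio of the DEHP mean over the control mean with a pseudocount of 1, which understates the change of low promoters, and the SE was computed from the authors' SDs. Promoters also shifted as a whole with CG content, so the median log2 ratio of the peers with as many CG sites is given beside each value. Of 5 values, none can be more than 1.79 SD away from their mean. Where the ranges of 1.79 SD around 2 means did not overlap, every library of 1 group was therefore above every library of the other, and the groups were called separated. This is a lower limit on how many truly were.

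In C57BL/6J, the clearest change among the 10 promoters was at Snrpn, whose log2 ratio was 1.74 (SE 0.33) and whose DEHP and control libraries were separated, with every control library below 1.89 and every DEHP library above 2.07 normalized reads. It was the only 1 of the 10 promoters separated with DEHP above control, against 0.249% of all promoters, and 0 of 10 were separated with control above DEHP, against 1.42% of all promoters. The Snrpn ratio ranked at 99.5% among its peers, whose median was 0.16. The largest change in the other direction was at Nnat, with a log2 ratio of -1.39 (SE 0.31) and a rank of 3.56% among its peers, whose median was -0.12. The Nnat mean was 2.62-fold higher in controls on the scale with the pseudocount, but the ranges of 1.79 SD around both means overlapped, so a separation was not shown. Log2 ratios above 1 were found for 1 of 10 promoters (Snrpn) and 5.09% of all promoters, and ratios below -1 for 1 of 10 (Nnat) and 10.7% of all.

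The other 8 promoters had log2 ratios between -0.53 and 0.29 in C57BL/6J. Grb10 was at -0.53 (SE 0.41) and Plagl1 at -0.47 (SE 0.44), close to the peer medians of -0.28 and -0.48. Kcnq1ot1 was at 0.27 (SE 0.48) and Zrsr1 at 0.17 (SE 0.32), while their peers were at -0.46 and -0.51. Igf2r was at 0.29 (SE 0.46), Peg10 at 0.18 (SE 0.59), Peg3 at 0.15 (SE 0.41) and Mest at 0.00 (SE 0.43). For 6 of the 10 promoters the log2 ratio was within 1 SE of 0, and for 2 (Snrpn and Nnat) it was beyond 2 SE. The median over the 10 promoters was 0.16, compared with -0.10 over all promoters, and 8 of 10 were above the median of their peers.

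In FVB/N, Snrpn was again the promoter with the highest ratio, at 1.36 (SE 0.40). Its peers had a median of 0.76 in this strain, however, its rank among them was 87.9%, and a separation was not shown, since a control library could reach 3.39 and a DEHP library could be as low as 2.11 normalized reads. None of the 10 promoters was separated in FVB/N, with 0 of 10 above in DEHP against 0.774% of all promoters and 0 of 10 above in controls against 0.859%. Log2 ratios above 1 were found for 1 of 10 promoters and 14.4% of all, and ratios below -1 for 0 of 10 and 2.68% of all. Peg3 followed with 0.81 (SE 0.33, peers 0.32) and Grb10 with 0.80 (SE 0.45, peers 0.05). Nnat was at -0.29 (SE 0.26, peers 0.32). Mest, Kcnq1ot1, Igf2r, Zrsr1, Peg10 and Plagl1 had ratios between -0.21 and 0.08 with SEs between 0.29 and 0.63. These 6 were within 1 SE of 0, and 2 (Snrpn and Peg3) were beyond 2 SE, the same counts as in C57BL/6J. The median over the 10 promoters was -0.04, compared with 0.35 over all promoters, and 7 of 10 were below the median of their peers.

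**Figure D4:**
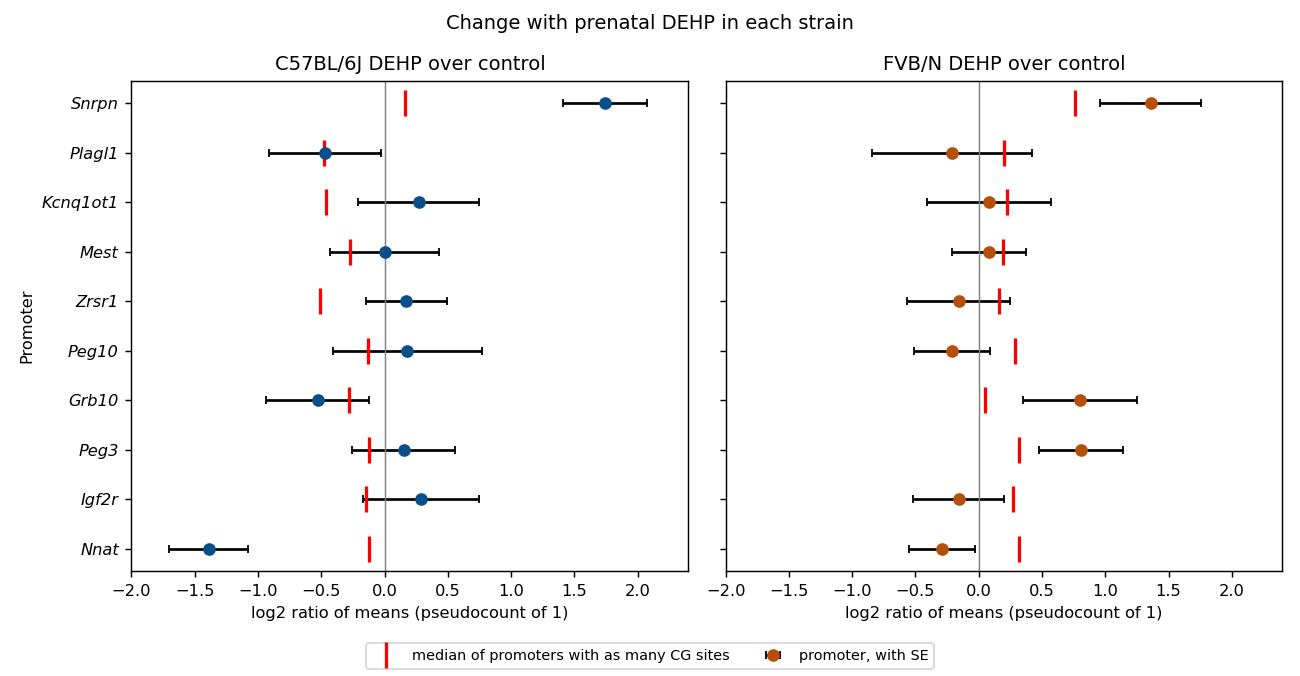
Log2 ratio of the DEHP mean over the control mean (horizontal axis, pseudocount of 1) for each promoter in C57BL/6J (left) and FVB/N (right), with points and bars for the ratio and its SE and red marks for the median of promoters with as many CG sites. In C57BL/6J, Snrpn at 1.74 and Nnat at -1.39 lie far from the red marks, and in FVB/N, Snrpn at 1.36 is nearer to its mark at 0.76.

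The responses in both strains were compared as the difference of the log2 ratios, C57BL/6J minus FVB/N, which was not tested. Grb10 differed by -1.32 (SE 0.61), with a lower mean in DEHP in C57BL/6J and a higher one in FVB/N. Less the difference of its peers this was -1.0. The Grb10 means were low, at 2.6, 1.5, 1.3 and 3.0 normalized reads, and its change was not beyond 2 SE in either strain. Nnat differed by -1.10 (SE 0.40), and Peg3 by -0.66 (SE 0.53). The peers of these 3 promoters differed by -0.33, -0.47 and -0.47. Snrpn differed by 0.37 (SE 0.51), less than its SE. None of the 10 promoters was separated in opposite directions in both strains.

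Between the strains, 0 of 10 promoters were separated in controls (1.06% of all promoters with C57BL/6J above and 0.0267% with FVB/N above) and 0 of 10 in DEHP (0.307% and 0.0311%). Samples of both strains were submitted together, so this comparison lay within a submission. In controls, the log2 ratio of C57BL/6J over FVB/N was -0.65 (SE 0.52) at Igf2r, 0.65 (SE 0.43) at Grb10 and 0.53 (SE 0.31) at Nnat, and 0 of the 10 ratios were beyond 2 SE. Promoters as a whole were higher in C57BL/6J controls, with a median of 0.54, so that 8 of 10 imprinted promoters lay below the median of their peers, Igf2r at a rank of 2.21% and Snrpn at 1.51%. In DEHP, Kcnq1ot1 was at 0.75 (SE 0.42), Grb10 at -0.68 (SE 0.42), Zrsr1 at 0.63 (SE 0.32) and Nnat at -0.57 (SE 0.25), while the median over all promoters was 0.04. Nnat was the 1 promoter with a ratio beyond 2 SE. Between the strains, 0 of 10 promoters had a log2 ratio above 1 or below -1 in either treatment, against 16.4% and 0.556% of all promoters in controls and 2.69% and 0.298% in DEHP.

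The neighbours of the 10 genes were described through 3 lists. Of 41 other genes in the same imprinted domains, 39 had a probe, and their median rank was 54.9%. The 8 genes of other domains with an oocyte imprint had a median rank of 61.3%, and the 6 genes of domains with a sperm imprint 40.3%. The lowest median ranks were those of Snurf (2.96%), Ube3a, the ubiquitin ligase of the Angelman region (5.05%), and Klf14, a single-exon transcription factor gene near Mest (6.08%). The highest were those of H19 (95.7%), Tspan32 (93.2%) and Kcnq1 (91.0%), the latter 2 in the domain of Kcnq1ot1. Of the 39 probes in the same domains, 1 was separated in C57BL/6J with DEHP above control and 1 with control above DEHP, against 0.249% and 1.42% of all promoters. The first was Ndn, in the domain of Snrpn, with 0.7 ± 1.1 normalized reads in controls and 4.7 ± 0.7 in DEHP (log2 ratio 1.75, SE 0.42), and in FVB/N its means were 1.1 ± 1.3 and 3.5 ± 2.1. The other listed neighbours of Snrpn had log2 ratios between -0.42 and 0.43 in C57BL/6J. The second was Pon3, in the domain of Peg10, with 18.9 ± 2.1 normalized reads in controls and 10.2 ± 2.3 in DEHP (log2 ratio -0.83, SE 0.15). Ndn and Pon3, Meg3, Rasgrf1 and Airn above, and Usp29, Sgce and Nespas below were chosen after their values were seen.

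In FVB/N controls, the probes on the other side of the Peg10 and Peg3 islands had higher levels than in the other groups. Sgce, which lies head to head with Peg10 and whose probe held 91.2% of its CG sites in an island, had 5.1 ± 3.4, 1.4 ± 1.0, 10.8 ± 3.5 and 1.3 ± 1.3 normalized reads. It was the 1 of the 39 probes in the same domains that was separated in FVB/N with control above DEHP (log2 ratio -2.36, SE 0.41), against 0.859% of all promoters, and 0 of 39 were separated with DEHP above. Usp29, head to head with Peg3, had 3.0 ± 2.0, 2.4 ± 1.5, 8.1 ± 5.9 and 2.2 ± 1.1, and Nespas, in the Gnas domain, had 5.2 ± 3.4, 3.3 ± 1.2, 8.1 ± 4.9 and 2.7 ± 2.6. The ranks of Sgce, Usp29 and Nespas in FVB/N controls were 97.3%, 88.5% and 88.2%, against at most 76.2%, 45.3% and 62.0% in the other groups. Most of their lists did not share this. The highest rank was in FVB/N controls for 11 of the 39 probes in the same domains. It was there for 1 of 8 in other domains with an oocyte imprint and 4 of 6 in domains with a sperm imprint. Peg10 had its highest rank in FVB/N controls (51.9%), whereas Peg3, with a log2 ratio of 0.81 in FVB/N against -1.51 (SE 0.47) at Usp29, moved the other way over a probe that shares 721 bp with that of Usp29.

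A list of 22 germline genes was set beside this result after the values were seen, and 21 had a probe. Its values are thus a description only. Their median ranks were 42.6%, 33.6%, 66.3% and 35.6%, and 17 of 21 had their highest rank in FVB/N controls. Their means summed to 135, 106, 144 and 101 normalized reads, and none was listed at 0 in any group. The 10 imprinted promoters had median ranks of 24.0%, 23.9%, 34.2% and 26.1%, and 5 of 10 had their highest rank in FVB/N controls. The share of all promoters with their highest rank in FVB/N controls is not given here, so these counts have no background. What set the levels of FVB/N controls apart was not tested.

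**Figure D5:**
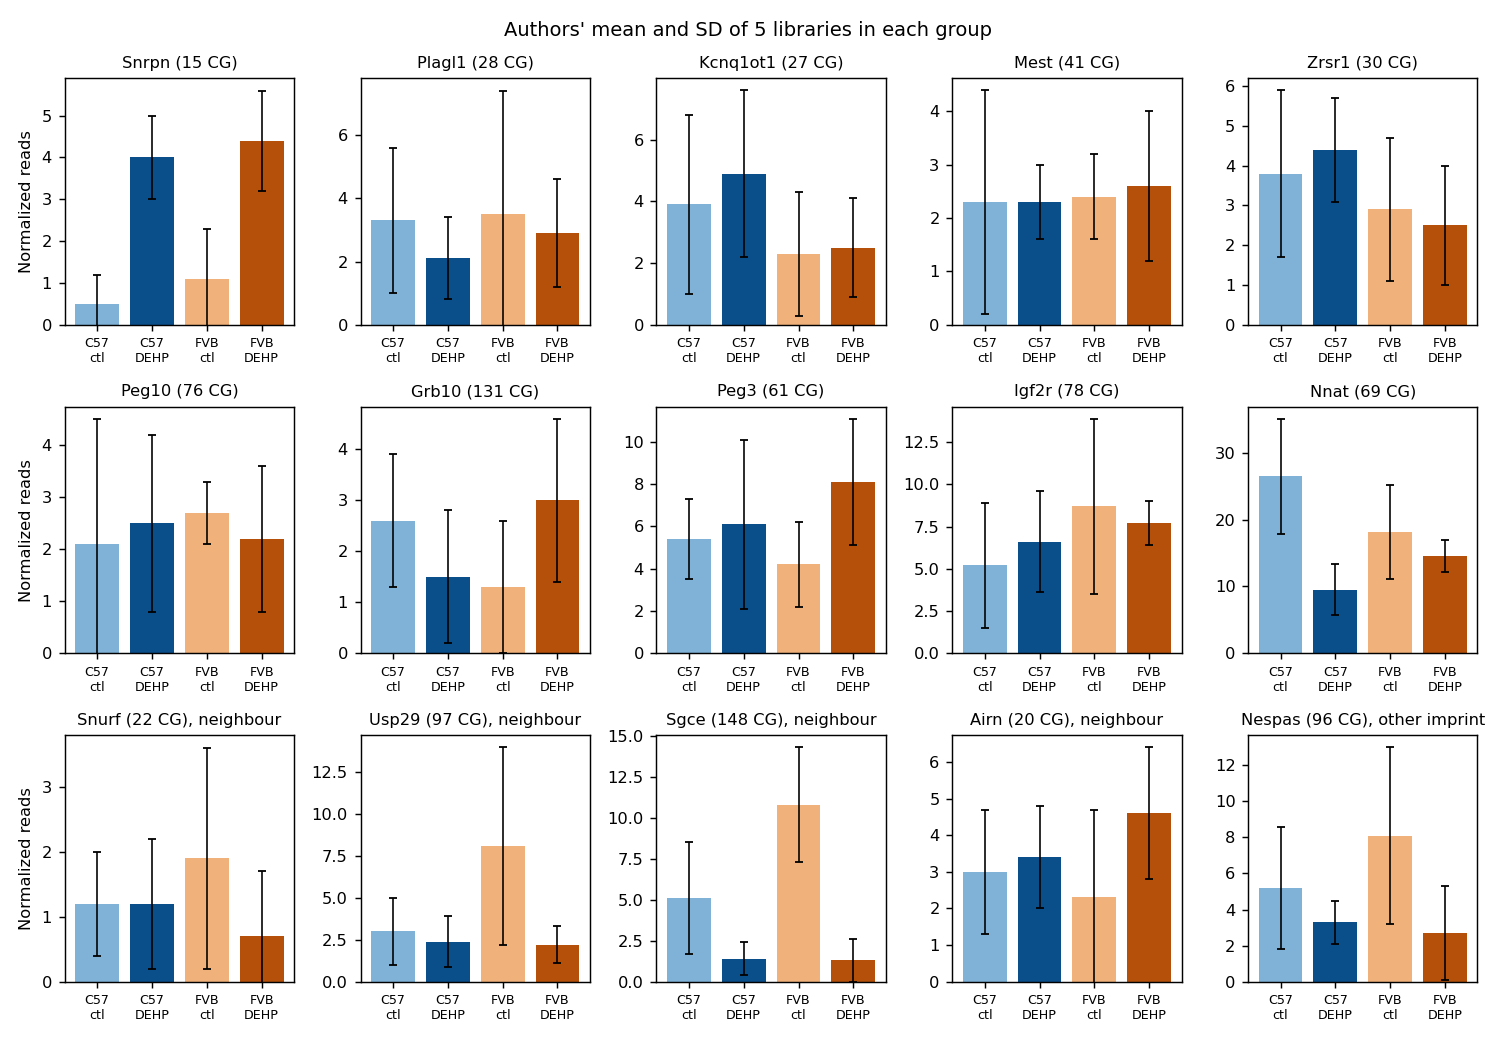
Authors' mean of normalized reads (bars) with the authors' SD (lines, ending at 0 where they would pass it) in C57BL/6J (blue) and FVB/N (orange), controls in the light shade and DEHP in the dark one, 5 libraries each, for the 10 imprinted promoters and for 5 other probes in the bottom row. Each panel has its own scale. Snrpn is higher in DEHP in both strains, with 4.0 against 0.5 and 4.4 against 1.1, Nnat is lowest in C57BL/6J DEHP with 9.5, and Sgce, Usp29 and Nespas are highest in FVB/N controls.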

How the data were processed

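Sperm DNA of 20 males in 4 groups of 5 was measured by MBD-sequencing. Bowtie (version 0.12.7) was used by the authors for the alignment to mm10, followed by removal of pairs that were discordant, had several positions or spanned no CpG. The authors then counted the pairs over each probe and used edgeR to normalize them. What was taken from the deposited table is this normalized signal as a mean and an SD per group, rounded to 1 decimal, for 22480 promoters, together with CG sites, variants and imprinting flags. A deposited expression score per gene in testis cells, which comes from another study and whose scale is not stated, was used as ranks only. The deposited table also holds the authors' fold changes, p-values and FDR of each comparison, which were not used. Groups were taken from the sample labels.

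Computed here were levels per CG site, ranks among promoters with CG sites within 10%, log2 ratios with a pseudocount of 1 and their SE by the delta method, and separations at 1.79 SD, widened by 0.05 for rounding. The tests planned for counts or single libraries could not be run on group means. Scripts were tested on simulated data. Sequence features came from GRCm38.p6, which has the chromosome coordinates of mm10, gene features from GENCODE M21 and starts and promoter sequences from RefSeq. Genes named were all 10 imprinted promoters and, of the 3 lists of other imprinted genes, the 3 highest and the 3 lowest median ranks among probes with at least 20 CG sites. Airn, Meg3, Rasgrf1, Ndn, Pon3, Sgce, Usp29 and Nespas were named outside this rule, after their values were seen. Members and lists were chosen with earlier results of these data known. Alternatives were other CG windows, CG sites counted in the reference, a filter on means of at least 1, pseudocounts of 0.1 and 0.5, scaling to equal sums or medians, and subtraction of the median of the peers. Software was Python (3.11.15), pandas (2.3.3), numpy (2.4.6), pysam (0.24.0) and matplotlib (3.10.9).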

Additional observations from a re-analysis of the deposited data

How the results depend on the processing

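The number of promoters with a median rank below 50% was 7, and also 7 under all 4 alternatives of the rank (a window of 5% or 20%, CG sites counted in the reference, a filter on means of at least 1). The number of imprinted promoters with separated libraries was the same in each comparison under every scaling and filter. The count over all promoters was not. With equal sums, promoters separated in C57BL/6J went from 56 to 230 with DEHP above and from 319 to 29 with control above. With equal medians, those in FVB/N went from 174 to 28 with DEHP above and from 193 to 731 with control above. In controls, promoters with C57BL/6J above went from 239 to 69 with equal sums and 65 with equal medians, and those with FVB/N above from 6 to 25 and 29. Of 220 values of single promoters, 217 moved by less than the spread between libraries. The exceptions were Snrpn in C57BL/6J at 2.77 with a pseudocount of 0.1, Nnat in FVB/N at -0.97 with equal medians and Nnat between control strains at -0.18 with equal medians. Some of the 217 still moved by more than the SE of their ratio. With equal medians, Igf2r in FVB/N went from -0.16 (SE 0.36) to -0.80 and Peg3 from 0.81 (SE 0.33) to 0.21. With equal sums, Nnat in C57BL/6J went from -1.39 (SE 0.31) to -0.86, and was then no longer below -1. Between control strains, Peg3 went from 0.30 to -0.32 and Zrsr1 from 0.30 to -0.28, so these directions depend on the scaling. The median of the 10 promoters between control strains, 0.13, was -0.39 with equal sums and -0.45 with equal medians, so its direction depends on the scaling. With DEHP, the median went from 0.16 to 0.58 with equal sums in C57BL/6J and from -0.04 to -0.57 with equal medians in FVB/N, in the same direction. No paired analysis was possible because only group means and SDs were analysed, and for the same reason leaving out single libraries and DESeq2 were not run.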

Other observations

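The table also gives expression in testis cells of C57BL/6J males from an independent dataset, read here as the rank of each gene among 17133 genes. In spermatogonia of young males, Mest (97.9%) and Plagl1 (96.9%) were near the top, followed by Nnat (87.6%), Grb10 (82.8%), Zrsr1 (79.8%), Peg3 (76.9%) and Igf2r (72.0%). Snrpn was in the middle (46.0%), and Kcnq1ot1 (21.8%) and Peg10 (20.4%) were low. In spermatids of adult males, Nnat (13.7%), Peg10 (13.2%) and Peg3 (8.69%) were near the bottom, with Plagl1 between Peg10 and Peg3, and Mest was at 37.7%, whereas Zrsr1 (75.2%) and Snrpn (65.8%) were higher. Nnat, which had the highest rank of the sperm level per CG site of the 10 promoters, and Peg10, Plagl1 and Peg3, with lower ones, thus all had low ranks of expression in spermatids.

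Meg3, in a domain methylated in sperm, had the same log2 ratio with DEHP in C57BL/6J as Nnat, -1.39 (SE 0.30), with 25.8 ± 10.3 normalized reads in controls and 9.2 ± 2.7 in DEHP. H19, in the other domain with a high level, had a log2 ratio of -0.47 (SE 0.30). In FVB/N the ratios were -0.37 (SE 0.18) for Meg3 and -0.10 (SE 0.22) for H19. These values were not tested.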
